A study of Mus musculus with 105 samples.

Results

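The genes described here encode core and accessory subunits of the Polycomb repressive complexes, and were taken by name from the count tables of bulk RNA-seq and scRNA-seq of differentiating female mouse embryonic stem cells (mESCs). They were Ezh2, Ezh1, Eed, Suz12, Jarid2, Mtf2, Phf19, Rnf2, Pcgf3 and Pcgf5, which are 10 of 52108 genes in the bulk tables, and all 10 passed the filter on low counts in both bulk fits. TX1072 is an F1 hybrid line of the strains C57BL/6 (B6) and CAST/EiJ (Cast), clone A3, with a doxycycline-responsive promoter before Xist on the B6 chromosome and an rtTA transgene in Rosa26. TXdXicB6 and TXdXicCast were made from TX1072 by deleting a region around Xist on the B6 or on the Cast X chromosome, so that TXdXicCast keeps both insertions, whereas TXdXicB6 keeps the rtTA transgene and lost the promoter with the deleted region. Each deletion line is 1 clone (TxdXic_A1 and TxdXic_A6). Each line was sampled before 2i/Lif withdrawal (day 0) and 1, 2, 3 and 4 days after it in medium with serum, with 3 bulk replicates per line and day. A single TX1072 culture per day was also sequenced as single cells.

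PRC2 is the complex that methylates lysine 27 of histone H3. Its core joins EED and SUZ12 to a methyltransferase, EZH2 or its paralogue EZH1, and the core is brought to chromatin either by a Polycomb-like protein such as MTF2 or PHF19 or by JARID2. PRC1 is the ubiquitin ligase for histone H2A, with RNF2 (RING1B) or its paralogue RING1 as catalytic subunit, and the forms that contain PCGF3 or PCGF5 are known to be recruited by Xist RNA to the X chromosome that is being silenced.

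The promoters of 4 of the genes are shown: Phf19, Suz12 and Ezh2, which are those of the 10 with an E2F word, and Mtf2 without one, whose level is set against that of Phf19 below. The sequences are from RefSeq (GRCm38.p6, the build that UCSC calls mm10) and run from 250 bases before the annotated start to 30 bases after it, in the direction of transcription. Capitals mark either of the E2F words TTTCCCGC and TTTGGCGC, searched on both strands, where the reverse strand reads GCGGGAAA and GCGCCAAA. The stretches lie at chr2:34913947-34914226 (minus strand) for Phf19, chr5:108065424-108065703 (plus strand) for the upstream start of Mtf2, chr6:47595001-47595280 (minus strand) for Ezh2 and chr11:79992856-79993135 (plus strand) for Suz12.
Phf19: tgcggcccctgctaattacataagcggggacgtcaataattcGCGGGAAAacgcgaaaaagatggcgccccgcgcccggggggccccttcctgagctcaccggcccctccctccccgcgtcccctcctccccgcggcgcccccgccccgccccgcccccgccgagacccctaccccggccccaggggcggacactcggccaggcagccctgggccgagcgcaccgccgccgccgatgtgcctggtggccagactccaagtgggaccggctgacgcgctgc
Mtf2: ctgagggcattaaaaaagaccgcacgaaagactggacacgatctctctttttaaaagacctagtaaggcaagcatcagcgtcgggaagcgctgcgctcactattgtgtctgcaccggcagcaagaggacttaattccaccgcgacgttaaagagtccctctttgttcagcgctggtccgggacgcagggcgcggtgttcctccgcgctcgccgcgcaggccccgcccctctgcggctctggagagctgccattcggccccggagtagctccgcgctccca
Ezh2: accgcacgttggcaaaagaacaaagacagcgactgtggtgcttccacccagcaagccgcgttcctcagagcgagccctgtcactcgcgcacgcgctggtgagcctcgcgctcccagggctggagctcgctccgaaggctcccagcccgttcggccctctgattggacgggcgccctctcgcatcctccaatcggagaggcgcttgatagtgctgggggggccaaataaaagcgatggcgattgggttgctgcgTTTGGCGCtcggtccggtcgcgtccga
Suz12: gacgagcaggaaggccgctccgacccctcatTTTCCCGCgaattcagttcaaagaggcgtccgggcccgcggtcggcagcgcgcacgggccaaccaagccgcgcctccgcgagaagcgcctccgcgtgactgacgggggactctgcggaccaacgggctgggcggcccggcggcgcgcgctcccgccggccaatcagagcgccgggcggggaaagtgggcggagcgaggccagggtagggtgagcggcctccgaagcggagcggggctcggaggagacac
An E2F word was found at 3 of the 10 genes, which were Phf19 (first base 208 bases before the start, on the reverse strand), Suz12 (219 bases before) and Ezh2 (3 bases after). The words were searched in windows of 300 bases, to 50 bases after the start. Over the 32851 mouse promoters searched in this way, either word was present in 1.56%. Each E2F word holds a CpG (C followed by G). The windows of Phf19, Suz12 and Ezh2 held 38, 41 and 31 CpGs, against a median of 7 over these promoters. Windows of Pcgf5 with 34 and 35 CpGs held neither word. The part of base composition in the matches was not tested. The E-box CACGTG was in 7.15% of promoters and in 0 of the 10 genes. All 10 genes had an entry, with 14 starts among them, and a match of letters describes the window only.

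The bulk counts covered between 19827011 and 39628784 reads per library in TX1072, between 20246434 and 49962859 in TXdXicB6 and between 16906263 and 57920260 in TXdXicCast. Levels are given in counts per 1000000 (CPM). Each library's total over the genes tested was multiplied by a factor from autosomal totals and TMM, centred on 1 within each table. A CPM is thus a relative level. In bulk samples, fewer cells of a type and less RNA per cell cannot be told apart. Several libraries stood apart from the rest. Mitochondrial genes took 7.9% and 8.57% of counts in day 0 replicate 3 and day 3 replicate 2 of TX1072. Per the methods, the RNA of TXdXicCast before 2i/Lif withdrawal was degraded and was fragmented differently. Mitochondrial genes took 0.135%, 0.32% and 0.2% of counts in these 3 libraries. The changes of single genes from day 0 to day 4 in TXdXicCast are therefore set beside those from day 1, while ratios over the 3 lines and allelic shares include these libraries. The share of counts assigned to an allele was 5.214% in day 0 replicate 1 and 9.565% in day 2 replicate 2 of TXdXicB6, against up to 34.917% in this line. Xist matched the labels of the lines, with mean B6 shares on day 4 of 45.2% in TX1072, 0.0228% in TXdXicB6 and 99.9% in TXdXicCast.

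The cells followed the marker genes of an exit from naive pluripotency. In TX1072 the summed level of 7 naive markers (Nanog, Esrrb and others) was 4873 CPM on day 0 (median of 3 libraries), 257 CPM on day 2 and 439 CPM on day 4. The 6 markers of formative or primed cells summed to 267 CPM on day 0, 3183 CPM on day 2 and 877 CPM on day 4, with Dnmt3b as the most abundant gene. Markers of several other cell types were higher on day 4 than on day 0. Of 5 genes listed for trophoblast the sum was 12.6 CPM on day 0 and 909 CPM on day 4, most of it from the keratin gene Krt8 (mean 886 CPM), with 1 of the 5 under 1 CPM. Of the 4 tested, 3 were called higher and 1, Cdx2, lower (medians of 7.45 and 2.08 CPM). The 4 mesoderm genes summed to 11.9 CPM on day 0 and 108 CPM on day 4 and were led by T, and the 6 endoderm genes, each of which rose, summed to 4.59 CPM and 36.8 CPM and were led by Dab2. The 3 neural genes summed to 43.4 CPM and 120.5 CPM, led by Nes, with 2 called higher and 1 lower on day 4, whereas the 4 fibroblast genes summed to 25.1 CPM and 11.7 CPM, with 1 called higher and 2 lower. The part of such cells in the day 4 values below was not tested.

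In TX1072, Phf19 and Mtf2, which encode Polycomb-like subunits, moved in opposite directions within a day of 2i/Lif withdrawal. Phf19, at 7.06, 4.36 and 5.34 CPM in the 3 replicates of day 0, stood at 48.8, 61.7 and 53.9 CPM on day 1. Its levels were 31.4, 24.1 and 25.6 CPM on day 2, 34.1, 30.8 and 28.5 CPM on day 3, and 15.5, 25.1 and 22.1 CPM on day 4. Every later library was thus above each day 0 library, and the day 1 libraries were the highest of all. The rise from day 0 to day 1 was 9.8-fold in the mean level, a log2 fold change of 3.28 ± 0.20 (SE, adjusted p = 2.72e-10, edgeR quasi-likelihood test with Benjamini-Hochberg adjustment, as for all adjusted p of single genes below). Phf19 fell again from day 1 to day 2 (-1.02 ± 0.18, adjusted p = 0.000146).

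Mtf2 moved the other way. Its levels were 599, 422 and 530 CPM on day 0, 336, 217 and 329 CPM on day 1, and 146, 126 and 163 CPM on day 4. No library of day 1 reached the lowest of day 0, and no library of day 4 reached the lowest of day 1. The log2 change was -0.82 ± 0.16 from day 0 to day 1 (adjusted p = 0.000341) and -1.83 ± 0.16 from day 0 to day 4 (adjusted p = 1.72e-08). Phf1, the other Polycomb-like gene, named after its values were seen, lay between 2.22 and 4.35 CPM in TX1072 and passed the test at none of these steps (0.11 ± 0.20 from day 0 to day 4, adjusted p = 0.665).

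Jarid2, which encodes the cofactor of the PRC2 form without a Polycomb-like protein, rose before it fell. It was at 488, 543 and 424 CPM on day 0, at 965, 911 and 895 CPM on day 1, and at 229, 275 and 263 CPM on day 4. The 3 groups did not overlap, with day 1 on top and day 4 at the bottom. The log2 change was 0.93 ± 0.12 from day 0 to day 1 (adjusted p = 6.04e-06), -0.74 ± 0.12 from day 2 to day 3 (adjusted p = 0.000211) and -0.85 ± 0.12 from day 3 to day 4 (adjusted p = 6.73e-05).

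Of the 10 genes, 3 rose (Phf19, Jarid2 and Ezh1) and 1 fell (Mtf2) from day 0 to day 1 in TX1072, where 25.0% of all 18871 genes tested rose and 21.9% fell. The change of Ezh1 was small (0.28 ± 0.10, adjusted p = 0.0350), and its call was lost in 5 of the 6 fits with 1 library left out (adjusted p between 0.0603 and 0.147), with TMM factors from all genes (0.0678) and without the filter on low counts (0.113). Pcgf5 did not pass (-0.28 ± 0.12, adjusted p = 0.0770) but was called lower with TMM factors from all genes (0.0454) and without day 0 replicate 3 (0.0306). The median over the 10 genes was 0.001 on the log2 scale, against 0.026 over all genes tested.

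**Figure D1:**
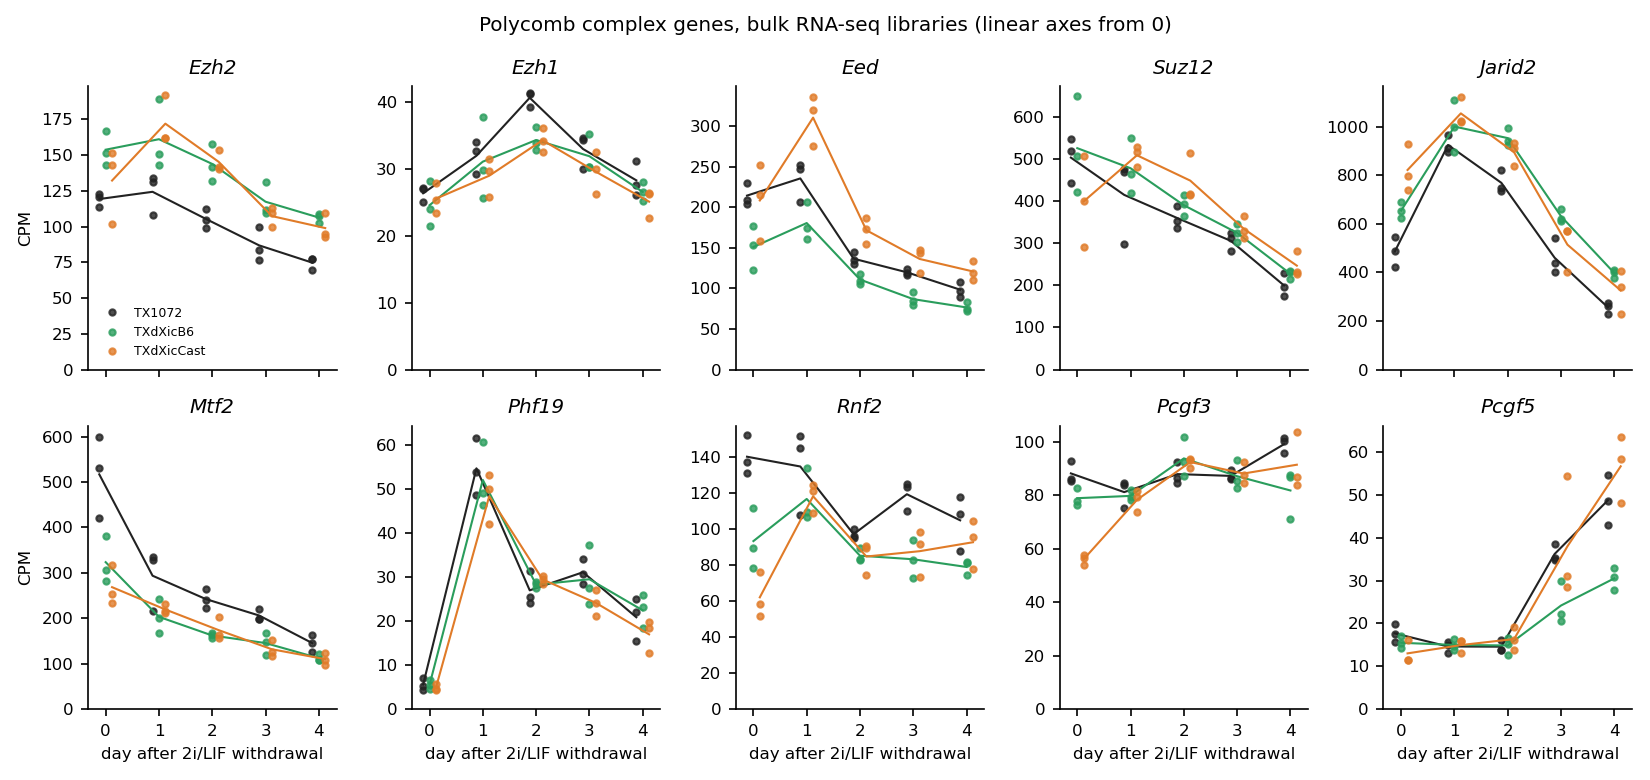
Level of each of the 10 Polycomb complex genes (CPM, linear axes from 0) by day after 2i/LIF withdrawal in TX1072, TXdXicB6 and TXdXicCast, where points are libraries and lines join the means of 3 replicates. Phf19 peaks on day 1 in all 3 lines, Pcgf5 is highest on days 3 and 4, and the Eed libraries of TXdXicCast lie above those of TXdXicB6 from day 1 on.

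Of the PRC2 core genes, Eed, Suz12 and Ezh2 were also lower by day 4, and Ezh1 did not pass the test (0.10 on the log2 scale, adjusted p = 0.419). Eed, the subunit that binds methylated histone H3, was at 208, 204 and 230 CPM on day 0, 247, 207 and 253 CPM on day 1, 131, 135 and 144 CPM on day 2 and 89.8, 97.3 and 108 CPM on day 4. Days 0 and 1 overlapped, and every library of day 2 was below all of them. The step from day 1 to day 2 was -0.79 ± 0.10 (adjusted p = 8.24e-06).

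Suz12, the scaffold of the core, was at 547, 445 and 520 CPM on day 0, 312, 324 and 282 CPM on day 3 and 197, 174 and 229 CPM on day 4. Day 4 was below every other library of TX1072. Between day 3 and day 4 Suz12 fell by 0.61 on the log2 scale (SE 0.15, adjusted p = 0.00619), and between day 0 and day 4 the change was -1.33 ± 0.16 (adjusted p = 6.36e-07).

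Ezh2, the methyltransferase found mainly in dividing cells, drifted down without a single step past the threshold. It was at 123, 114 and 121 CPM on day 0 and at 77.6, 69.4 and 77.1 CPM on day 4, so that the groups did not overlap, and the change over the 4 days was -0.67 ± 0.11 (adjusted p = 4.99e-05). Its paralogue Ezh1 took a different course, with 26.9, 27.1 and 25.0 CPM on day 0, 41.4, 41.2 and 39.2 CPM on day 2 and 27.5, 31.2 and 26.1 CPM on day 4. The day 2 libraries were above all others of TX1072, while days 0 and 4 overlapped. Ezh1 rose from day 1 to day 2 (0.35 ± 0.10, adjusted p = 0.0120) and fell from day 2 to day 3 (-0.30 ± 0.10, adjusted p = 0.0376), and the second call was lost in 6 of the 6 fits with 1 library left out (adjusted p between 0.0556 and 0.167).

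From day 1 to day 2, 1 of the 10 genes rose (Ezh1) and 3 fell (Eed, Phf19 and Rnf2), beside 18.7% of all genes tested that rose and 20.9% that fell. Without day 1 replicate 2, 5 of the 10 fell, since Suz12 (adjusted p = 0.0369) and Mtf2 (adjusted p = 0.0272) were also called. From day 2 to day 3, 1 rose (Pcgf5) and 2 fell (Ezh1 and Jarid2), beside 13.8% and 12.9% of all genes.

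The PRC1 genes differed in their courses. Pcgf5 was at 17.5, 19.9 and 15.7 CPM on day 0, 16.1, 13.9 and 13.7 CPM on day 2, 38.6, 35.2 and 34.9 CPM on day 3 and 48.5, 43.0 and 54.7 CPM on day 4. The libraries up to day 2 lay under 20 CPM and those of days 3 and 4 over 34 CPM, with nothing between. The step from day 2 to day 3 was 1.32 ± 0.12 (adjusted p = 6.11e-07) and was followed by 0.43 ± 0.12 from day 3 to day 4 (adjusted p = 0.0132, and 0.0507 and 0.0768 without day 3 replicate 3 and day 4 replicate 3).

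Pcgf3, the other of the pair, stayed within 75.1 and 101.4 CPM in all 15 TX1072 libraries. Its values were 92.9, 86.2 and 85.5 CPM on day 0 and 100.2, 95.7 and 101.4 CPM on day 4, which did not overlap. The difference of 0.17 ± 0.09 did not pass the test in edgeR (adjusted p = 0.113) and did in DESeq2 (0.20, adjusted p = 0.0297).

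Rnf2, the catalytic subunit of PRC1, was at 153, 137 and 131 CPM on day 0, 96.5, 94.99 and 100.4 CPM on day 2 and 109, 88.1 and 118 CPM on day 4. The day 0 libraries were above those of days 2 and 4. Rnf2 fell from day 1 to day 2 (-0.47 ± 0.13, adjusted p = 0.00751, and 0.0623 without day 1 replicate 3) and was lower on day 4 than on day 0 (-0.42 ± 0.13, adjusted p = 0.00972, and 0.0506 and 0.0655 without day 0 replicate 1 and day 4 replicate 2).

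From day 3 to day 4, 1 of the 10 genes rose (Pcgf5) and 5 fell (Eed, Suz12, Jarid2, Mtf2 and Phf19), beside 15.5% of all genes that rose and 12.2% that fell. The calls of Eed, Mtf2 and Phf19 were lost in 5, 4 and 3 of the 6 fits with 1 library left out (highest adjusted p 0.186, 0.110 and 0.110), and all 3 were lost (adjusted p = 0.0735, 0.0784 and 0.0542) when both libraries of highest mitochondrial share were left out, an alternative added after the data were seen. Over the whole course from day 0 to day 4, 2 of the 10 genes rose (Phf19 and Pcgf5) and 6 fell (Mtf2, Suz12, Eed, Jarid2, Ezh2 and Rnf2), beside 29.8% and 30.0% of the genes tested. The median of the 10 genes was -0.547 on the log2 scale, against -0.049 over all genes tested. Phf19 was 1.89 ± 0.19 higher on day 4 than on day 0 (adjusted p = 9.69e-08) and Pcgf5 was 1.46 ± 0.12 higher (adjusted p = 9.86e-09).

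Per kilobase of exon, the order of the genes changed with these moves. On day 0 the mean levels in TX1072 were 101.9 CPM per kb for Suz12, 90.7 for Mtf2, 56.0 for Eed, 49.9 for Jarid2, 34.0 for Rnf2, 17.9 for Ezh2, 9.24 for Pcgf3, 3.54 for Ezh1, 1.40 for Pcgf5 and 1.11 for Phf19. The libraries of Suz12 and Mtf2, of Eed and Jarid2, and of Pcgf5 and Phf19 overlapped at this day, and the other neighbours in the order did not. On day 4 Suz12 was still first with 40.4 CPM per kb, followed by Jarid2, Eed, Mtf2 and Rnf2 between 26.3 and 25.4, which overlapped with each other. Ezh2 (11.2 CPM per kb) and Pcgf3 (10.4) came next and overlapped with each other. Phf19 (4.15), Pcgf5 (3.86) and Ezh1 (3.80) followed, these 3 overlapping. Exon lengths were from the GENCODE vM21 annotation.

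Exons of 6 of the 10 genes overlap a gene on the opposite strand, and whether the bulk reads were counted by strand is not given in the sources used here, so that reads in these bases cannot be told apart. In mm10, 5 of the genes lie on chromosomes 11 (Ezh1, 101191115 to 101226463), 13 (Jarid2, 44729474 to 44921643), 5 (Pcgf3, 108461232 to 108506976), 19 (Pcgf5, 36348309 to 36460970) and 1 (Rnf2, 151458004 to 151500955). The overlap covered 6.93% of the exon bases of Mtf2 (with Tmed5), 6.82% of Eed (E230029C05Rik), 3.83% of Rnf2 (Trmt1l), 3.6% of Suz12 (Gm26563), 2.61% of Ezh2 (Gm26625) and 0.475% of Pcgf5 (F530104D19Rik).

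Ratios of 2 genes within a library need no library size and addressed whether paralogues exchanged their share. For each of 5 pairs and 5 steps, the log2 ratio of counts was compared between days over the 3 lines by an exact permutation test (two-sided, day labels permuted within each line, 9 libraries against 9, smallest possible p 0.00025), with adjustment over all 25, of which 15 passed. These ratios are of counts and are not scaled for length. In TX1072 Mtf2 exceeded Phf19 by a mean log2 ratio of 6.54 ± 0.12 (SD, n = 3) on day 0 and of 2.40 ± 0.52 on day 1. Across the lines the ratio fell by 3.88 from day 0 to day 1, with -4.14 in TX1072, -3.91 in TXdXicB6 and -3.59 in TXdXicCast (adjusted p = 0.00125, exact permutation test). A part of it returned by day 2 (0.56, adjusted p = 0.00234, exact permutation test), and it was still 3.44 lower on day 4 than on day 0 (mean difference -3.44, adjusted p = 0.00125, exact permutation test).

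The ratio of Pcgf3 to Pcgf5 turned between day 2 and day 3. Its mean in TX1072 was 2.32 ± 0.18 (SD, n = 3) on day 0, 2.60 ± 0.17 on day 2, 1.27 ± 0.10 on day 3 and 1.03 ± 0.13 on day 4. Over the 3 lines the step from day 2 to day 3 was -1.12 (adjusted p = 0.00125, exact permutation test) and that from day 3 to day 4 was -0.42 (adjusted p = 0.00938, exact permutation test). Every library of days 0 to 2 lay above every library of days 3 and 4 of its line, most narrowly in TXdXicB6 (2.28 against 2.18).

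Ezh2 lost ground to Ezh1 by less. The mean log2 ratio in TX1072 was 2.18 ± 0.10 (SD, n = 3) on day 0, 1.96 ± 0.26 on day 1 and 1.37 ± 0.13 on day 2, and the difference from day 0 to day 4 over the lines was -0.60 (adjusted p = 0.00234, exact permutation test). From day 1 to day 2 it was -0.46 (adjusted p = 0.00556, and 0.0536 without TXdXicCast, exact permutation test).

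Jarid2 gained on Mtf2 from day 0 to day 1 (1.23 over the 3 lines, adjusted p = 0.00125, exact permutation test) and fell back in the steps from day 2 to day 3 (-0.45, adjusted p = 0.00208) and from day 3 to day 4 (-0.35, adjusted p = 0.0125, exact permutation tests). Over the whole course the difference was 0.54 (adjusted p = 0.0212, 0.0517 with day labels exchanged only within a replicate number, and 0.0521 and 0.0513 without day 0 replicate 2 or day 4 replicate 1 of TXdXicCast, and 0.0762 on the allele-assigned counts, where it was 0.38, exact permutation tests), made up of 0.91 in TX1072, 0.80 in TXdXicB6 and -0.09 in TXdXicCast with its degraded day 0. Rnf2 rose against Ring1, its paralogue, from day 0 to day 1 by 0.84 (adjusted p = 0.0212), which was 0.353 (adjusted p = 0.250, exact permutation tests) without TXdXicCast, whose own difference was 1.80.

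**Figure D2:**
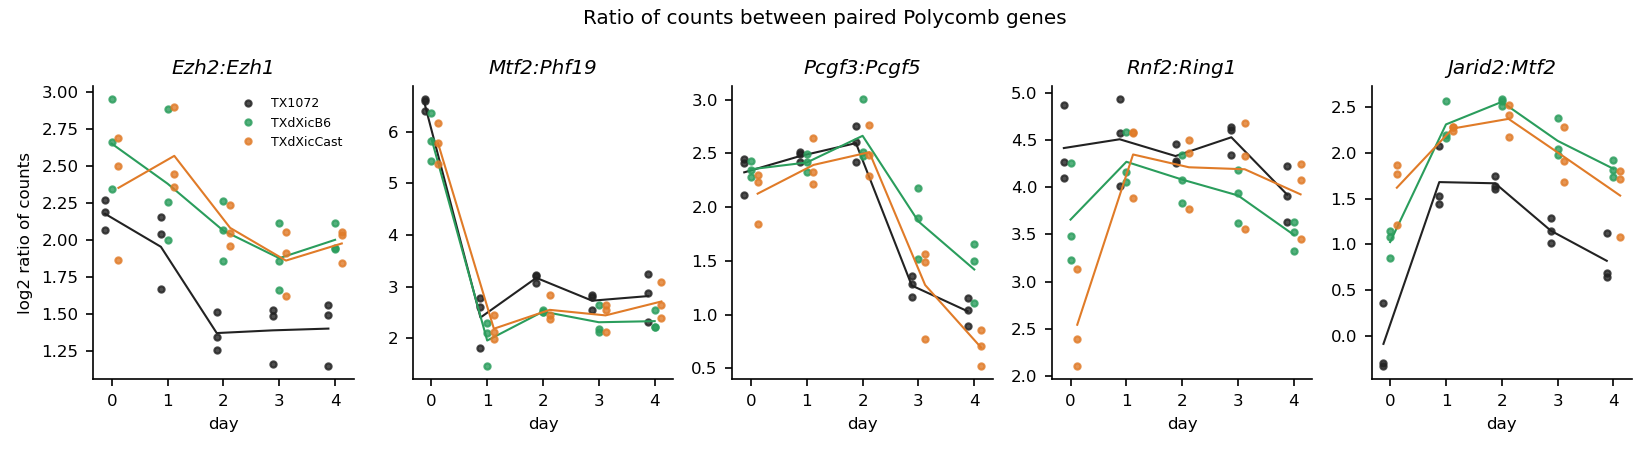
Log2 ratio of counts of 5 pairs of Polycomb genes (vertical axes that do not start at 0) by day in TX1072, TXdXicB6 and TXdXicCast, where points are libraries and lines join the means of 3 replicates. The Mtf2:Phf19 ratio drops by about 4 log2 units between days 0 and 1, and the Pcgf3:Pcgf5 ratio drops between days 2 and 3.

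The deletion lines, in which Xist can be expressed from 1 X chromosome only, addressed whether the course depended on the line. Phf19 was at 6.54, 5.40 and 4.62 CPM on day 0 and 60.9, 46.5 and 49.1 CPM on day 1 in TXdXicB6, and at 5.60, 4.41 and 4.60 CPM and 53.2, 50.1 and 42.0 CPM in TXdXicCast. Both lines thus held the low day 0 and the high day 1 values of TX1072, without overlap. On day 4 Phf19 was at 23.2, 18.3 and 25.9 CPM in TXdXicB6 and at 18.5, 19.7 and 12.7 CPM in TXdXicCast.

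Mtf2 stood lower at the start in the deletion lines (282, 307 and 381 CPM in TXdXicB6 and 233, 318 and 254 CPM in TXdXicCast on day 0), whose libraries were prepared with another kit and normalized apart, so that levels were not tested against TX1072. It ended at 108, 108 and 121 CPM in TXdXicB6 and at 97.9, 123 and 109 CPM in TXdXicCast, below every library of day 1 in its line. Jarid2 was at 999, 894 and 1107 CPM on day 1 in TXdXicB6 and at 1022, 1018 and 1122 CPM in TXdXicCast, and on day 4 at 410, 378 and 403 CPM and at 342, 405 and 230 CPM. Days 1 and 4 were apart in both lines, while day 1 overlapped with day 2 in TXdXicB6 and day 4 with day 3 in TXdXicCast.

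From day 0 to day 4 in TXdXicB6, 2 of the 10 genes rose and 5 fell, beside 30.1% and 29.1% of all genes tested. The rises were of Phf19 (2.02 ± 0.18, adjusted p = 1.28e-10) and Pcgf5 (0.98 ± 0.19, adjusted p = 8.24e-05), and the falls were of Mtf2, Suz12, Eed, Jarid2 and Ezh2. From day 1 to day 4 in this line, 1 rose (Pcgf5) and 7 fell (Ezh2, Eed, Suz12, Jarid2, Mtf2, Phf19 and Rnf2), beside 27.8% and 28.7% of genes, with the largest fall for Jarid2 (-1.33 ± 0.14, adjusted p = 6.13e-09).

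In TXdXicCast, 4 of the 10 genes rose and 5 fell from day 0 to day 4, beside 36.0% and 33.7% of all genes. The rises of Phf19 (1.82 ± 0.18, adjusted p = 9.73e-10), Pcgf5 (2.12 ± 0.20, adjusted p = 2.53e-10), Pcgf3 (0.71 ± 0.09, adjusted p = 9.79e-08) and Rnf2 (0.58 ± 0.15, adjusted p = 0.000921) rest on the degraded day 0 RNA. Fibroblast markers also moved with this start, with a sum over 4 genes of 69.1 CPM on day 0, led by Col1a2 (mean 40.8 CPM), and of 29.7 CPM on day 1. The 3 neural markers summed to 106 CPM on day 0, led by Nes (mean 87.8 CPM), and to 26.9 CPM on day 1, and the 4 general pluripotency markers to 3412 and 2445 CPM. Their part in the values from day 0 was not tested. From day 1 to day 4, 2 rose and 7 fell, beside 30.4% and 28.8% of genes. From this start Rnf2 was among the genes that fell (-0.35 ± 0.14, adjusted p = 0.0377, lost in 4 of the 6 fits with 1 library left out). Pcgf3 rose by 0.22 ± 0.09 (adjusted p = 0.0336). The Pcgf3 call was lost in 3 of the 6 fits with 1 library left out (lowest log2 change 0.0949, highest adjusted p 0.414). It was also lost with TMM factors from all genes (0.0688) and without the filter (0.238). Pcgf5 rose by 1.92 ± 0.20 (adjusted p = 2.35e-09) and Phf19 fell by 1.51 on the log2 scale (SE 0.17, adjusted p = 1.18e-08).

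The lines were then compared directly. On day 1, TXdXicCast and TXdXicB6 differed at 0.392% of the genes tested and at 1 of the 10, Eed. On day 4 they differed at 5.98% of genes (1190, and 1798 with the replicate number as a block) and at 2 of the 10, Eed and Pcgf5. In the change from day 1 to day 4 they differed at 0.83% of genes (165, and 298 with the block) and at 0 of the 10 in edgeR and in DESeq2. At an unadjusted p under 0.05, 1 of the 10, Pcgf5, passed in edgeR, beside 2178 of the 19885 genes tested, and it was called with the block.

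Pcgf5 was at 14.8, 13.8 and 16.3 CPM on day 1 and 30.8, 27.8 and 33.0 CPM on day 4 in TXdXicB6, and at 13.1, 15.9 and 15.8 CPM and 48.1, 58.3 and 63.6 CPM in TXdXicCast. The lines overlapped on day 1 and were apart on day 4, where TXdXicCast was higher by 0.89 ± 0.19 on the log2 scale (adjusted p = 0.00370). The difference in the change from day 1 to day 4 was 0.90 ± 0.27 (adjusted p = 0.125, 0.0300 with the replicate block and 0.00490 without the filter on low counts). Trophoblast markers summed to 385 CPM in TXdXicB6 and 812 CPM in TXdXicCast on day 4, with Krt8 the most abundant (means of 339 and 900 CPM), and 1 of 5 genes was called higher in TXdXicCast. Endoderm markers summed to 39.0 and 46.2 CPM (2 of 6 called higher), fibroblast markers to 15.8 and 23.8 CPM (2 of 4 higher), naive markers to 477 and 461 CPM (2 of 7 higher), formative markers to 1573 and 1108 CPM (3 of 6 called lower) and mesoderm markers to 25.2 and 23.2 CPM (0 of the 3 tested were called). The mesoderm sum ran from 18.3 to 32.3 CPM over the TXdXicB6 libraries and from 14.6 to 122.7 CPM over those of TXdXicCast, where 1 library was far above the others in T (11.5, 18.7 and 92.9 CPM). General pluripotency markers summed to 1672 CPM in TXdXicB6 and 1269 CPM in TXdXicCast (1 of 4 called lower). The part of all these markers in the Pcgf5 difference was not tested, and clone and deletion cannot be told apart.

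Eed was higher in TXdXicCast on each day from day 1 on. On day 1 it was at 276, 319 and 336 CPM in TXdXicCast and at 174, 161 and 206 CPM in TXdXicB6, and on day 4 at 110, 134 and 118 CPM and at 74.9, 71.6 and 83.0 CPM. The lines did not overlap on either day. The difference was 0.78 ± 0.14 on day 1 (adjusted p = 0.00614, and 0.0710 and 0.0608 without day 1 replicate 2 of TXdXicB6 and without day 1 replicate 3 of TXdXicCast) and 0.66 ± 0.14 on day 4 (adjusted p = 0.00446), while the change from day 1 to day 4 differed by -0.12 ± 0.20 (adjusted p = 0.911).

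The 2 alleles gave a further view of this difference. The B6 share of the allele-assigned Eed counts had a median of 53.6% over the 15 TX1072 libraries and of 53.9% in TXdXicB6, but of 68.9% in TXdXicCast, where it lay between 63.5% and 72.6%. No library of TXdXicCast overlapped with the other lines. Eed lies on chromosome 7 (mm10, 89954654 to 89980983, minus strand), and in TXdXicCast the genes of this chromosome had a median B6 share of 51.1%, but the 9 within 2 Mb of Eed one of 68.8%. In TX1072 and TXdXicB6 the genes with enough allelic counts in this window, 6 and 7 in number, had medians of 54.6% and 58.6%. Nox4, Tmem135, Hikeshi, Picalm, Crebzf, Tmem126a and Tmem126b, which lie from 2.71 Mb before to 0.513 Mb after Eed, had B6 shares between 64.2% and 75.9% in TXdXicCast. Their mean levels over days 1 to 4 were higher in TXdXicCast than in TXdXicB6 on the log2 scale. The differences were between 0.56 (Tmem126a) and 0.72 (Tmem126b), and 1.61 for Nox4, beside 0.70 for Eed itself. Zfand6, 5.34 Mb before Eed, and Ccdc90b, 2.61 Mb after it, had B6 shares of 53.9% and 58.5% in TXdXicCast, against 54.1% and 59.5% in TX1072, and level differences of 0.15 and 0.10. Levels and shares of these neighbouring genes thus moved together with those of Eed, and the cause was not tested.

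**Figure D3:**
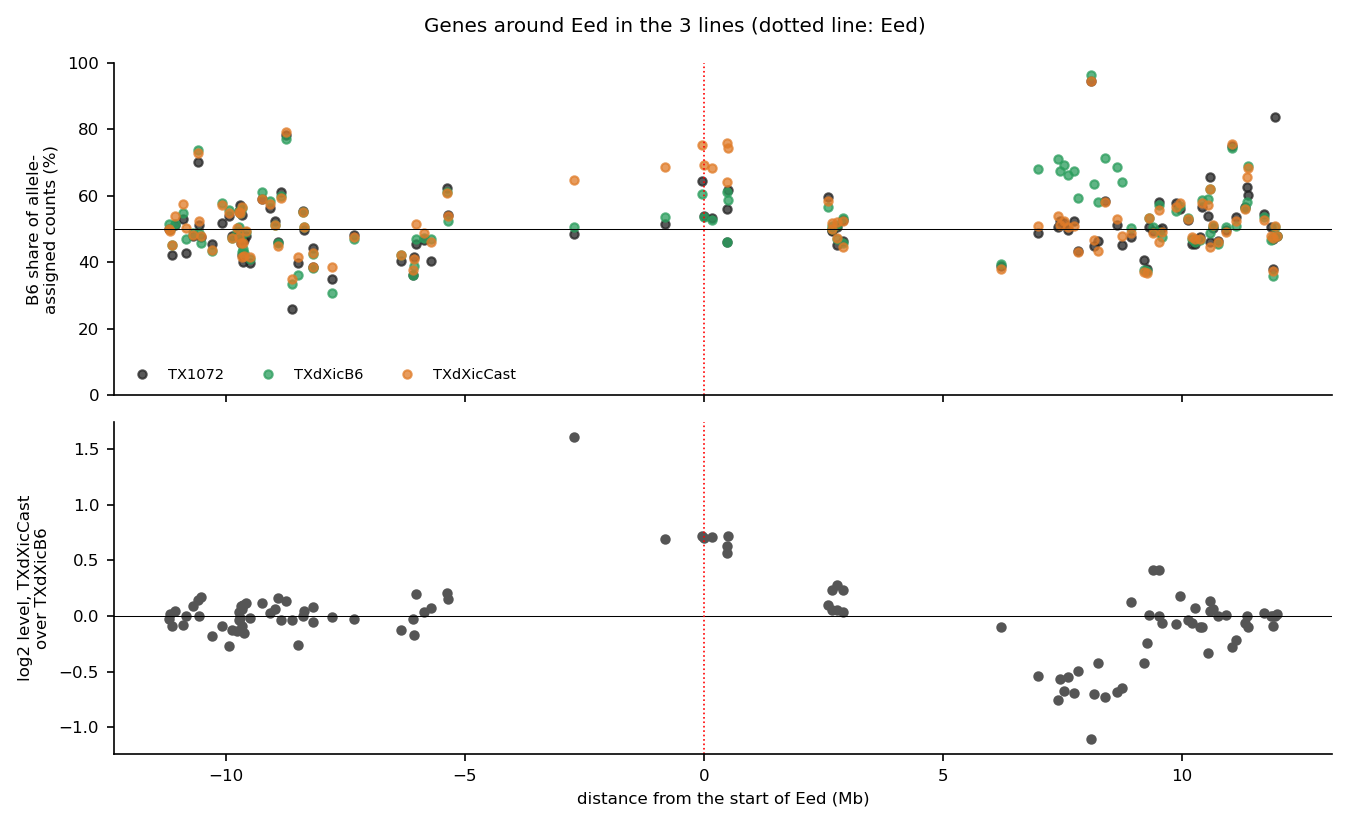
Top, B6 share of allele-assigned counts (percent, summed over the libraries of a line) of genes within 12 Mb of Eed on chromosome 7 in TX1072, TXdXicB6 and TXdXicCast, and bottom, log2 ratio of mean CPM between TXdXicCast and TXdXicB6, both against distance from the start of Eed in Mb (dotted line). The genes nearest to Eed have B6 shares between 64.2% and 75.9% in TXdXicCast and are all higher in that line, and a second stretch from Nars2 to Thap12 has raised B6 shares in TXdXicB6 and is lower in TXdXicCast.

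The other 9 genes, all autosomal, had similar shares in the lines, with exceptions. Ezh2 had a mean B6 share of 58.1% ± 3.2 (SD over 15 libraries) in TX1072, but of 47.2% ± 1.6 in TXdXicB6 and 46.6% ± 1.4 in TXdXicCast. Both deletion lines, which share a library kit, stood apart from TX1072, without overlap. Phf19 was expressed more from the Cast allele in each line, with mean B6 shares of 33.2%, 29.1% and 31.9%. Of the 150 means of a gene in a line and day, those of Eed included, 120 were between 40% and 60%.

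The allelic shares of Jarid2 and Rnf2 differed in all 3 lines between the days named here, which are not the same for both genes. How many of all genes part between days in this way is not given here. Shares of other genes also ranged widely, as from 25.0% to 43.8% for Phf19 over the TX1072 libraries. The shares of Ezh1 also differed in all 3 lines, with day 0 libraries above those of day 2. Its means on these days were 66.6% and 58.0% in TX1072, 64.7% and 54.0% in TXdXicB6, and 60.4% and 53.8% in TXdXicCast. Jarid2 had a mean B6 share of 52.4% ± 1.0 (SD, n = 3) on day 0 and 43.3% ± 0.8 on day 3 in TX1072. In TXdXicB6 the means were 53.1% ± 2.0 and 43.4% ± 1.3, and in TXdXicCast they were 54.2% ± 0.5 and 42.7% ± 0.5. The day 0 libraries were above those of day 3 in every line. Rnf2 had 65.2% ± 0.5 on day 1 and 54.5% ± 1.0 on day 2 in TX1072, 67.9% ± 2.6 and 52.8% ± 4.3 in TXdXicB6, and 64.7% ± 2.7 and 54.9% ± 4.2 in TXdXicCast. All 9 libraries of day 1 were above all 9 of day 2, at the step at which the total level of Rnf2 fell in TX1072. These shares are described with no test.

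Single TX1072 cells were kept where the study lists them as having passed its quality control. These were 1472 of 2000 capture sites, 277, 325, 341, 257 and 272 on days 0 to 4, with median UMIs per cell between 124651 (day 1) and 171158 (day 4). There was a single culture per day, so that no test was made, and the intervals below cover counting error only. Levels are UMIs per 1000000 UMIs, over all kept cells of the day. Mtf2 was at 677 UMIs per 1000000 on day 0, 476 on day 1 and 229 on day 4, and Suz12 at 432, 422 and 185. Jarid2 went from 551 on day 0 to 1108 on day 1 and 259 on day 4. Eed held 258 on day 0, 294 on day 1 and 179 on day 2. For these 4 genes, these days stood in the same order as in bulk. Other genes departed from the bulk order. Ezh1 was highest on day 3 (28.5, beside 26.1 on day 2) and in bulk on day 2, and Rnf2 went from 63.1 on day 3 to 71.1 on day 4, where the bulk medians were 123.5 and 108.7 CPM.

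Pcgf5 was at 17.7 UMIs per 1000000 on day 0 (95% exact Poisson interval 16.38 to 19.04), 18.7 on day 2 (17.4 to 20.0), 62.3 on day 3 (59.6 to 65.1) and 51.4 on day 4 (49.3 to 53.5). The jump between days 2 and 3 was thus seen in single cells, but day 4 was below day 3, unlike in bulk. The share of cells with a Pcgf5 UMI was 38.1% on day 2 (95% Clopper-Pearson interval 32.9 to 43.5) and 56.4% on day 3 (50.1 to 62.6), and 26.4% and 48.6% after every cell had been thinned to 40000 UMIs. The cells with a Pcgf5 UMI held a median of 4 UMIs on day 2 and of 9 on day 3.

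For Phf19 most cells of each day held no UMI. Its UMIs per 1000000 were 4.65 on day 0 (4.00 to 5.38), 27.4 on day 1 (25.9 to 29.1), 10.8 on day 2, 17.5 on day 3 and 5.77 on day 4 (5.09 to 6.51). A Phf19 UMI was found in 8.66% of cells on day 0 (5.63 to 12.6), in 44.9% on day 1 (39.4 to 50.5) and in 9.56% on day 4 (6.34 to 13.7), and in 6.50%, 35.4% and 5.88% of thinned cells. All cells are of the same line, so that no cell type lacks Phf19 by design, and Fgf5, a gene of primed cells, was found in 1.08% of cells on day 0. The day 1 peak was as in bulk, and day 4 exceeded day 0 by a log2 ratio of 0.311 (0.032 to 0.592) in single cells, and the ratio was -0.65 after thinning. In bulk replicate 1, which came from the same cell population as the single cells, Phf19 was at 7.06 CPM on day 0 and 15.5 CPM on day 4. The mean number of Phf19 UMIs in a cell with any was between 7.55 and 11.3, and a single cell held up to 79, so that the counts gather in few cells and the intervals are too narrow.

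**Figure D4:**
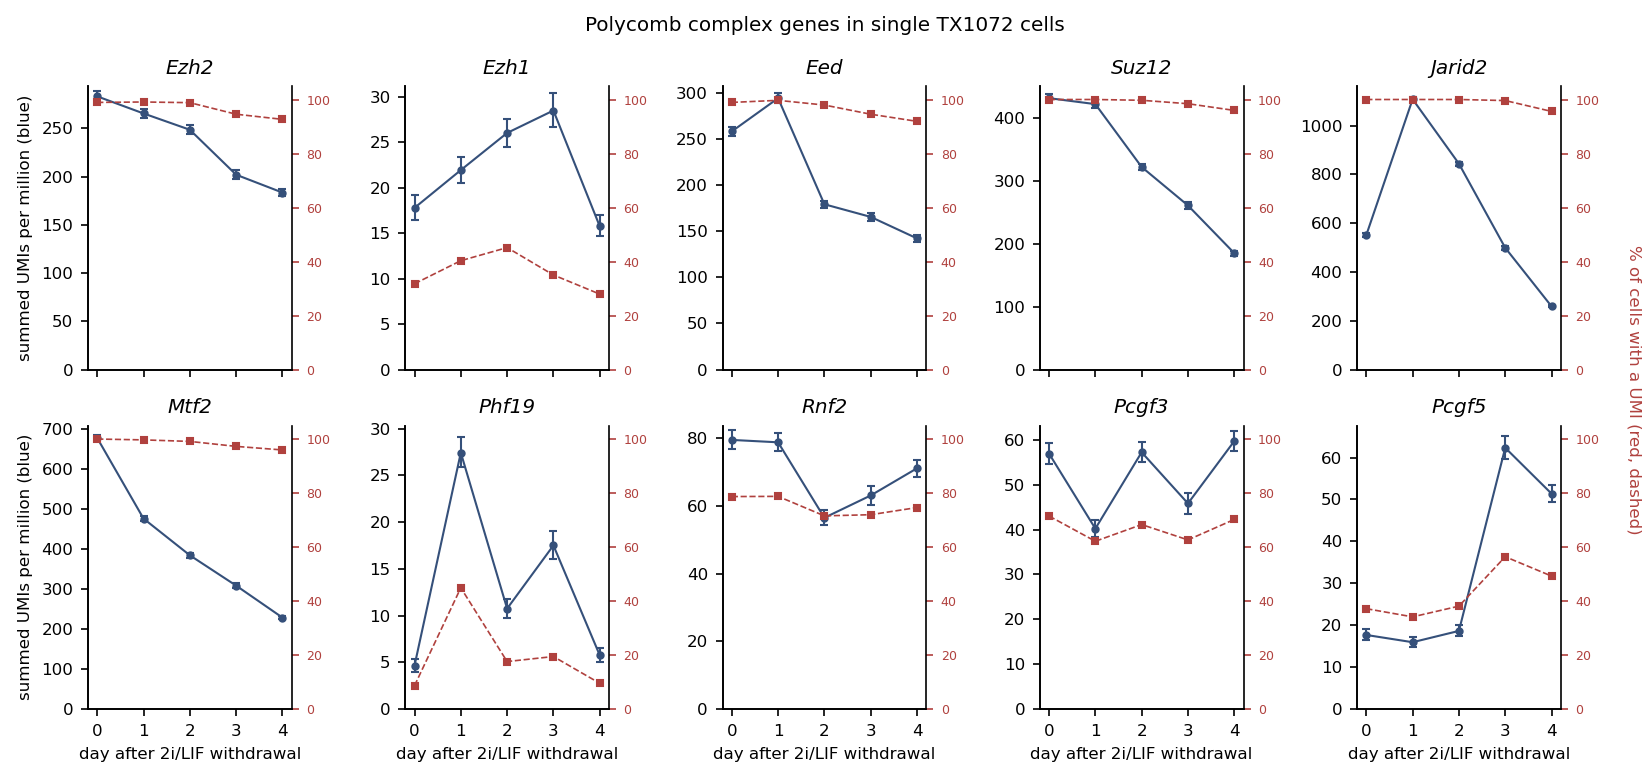
UMIs per 1000000 UMIs over all kept cells (blue points, left axes from 0, bars are 95% exact Poisson intervals) and share of cells with at least 1 UMI in percent (red squares, right axes) of the 10 Polycomb complex genes in single TX1072 cells on days 0 to 4. Phf19 and Jarid2 peak on day 1, and Pcgf5 rises between day 2 and day 3.

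Of the other Polycomb genes, 47 were examined beside the 10. In TX1072 from day 0 to day 4, 2 of 8 further PRC2 genes rose and 3 fell, 6 of 30 further PRC1 genes rose and 16 fell, 0 of 5 erasers of Polycomb marks rose and 2 fell, and 1 of 4 partners of Xist rose, beside 29.8% of all genes tested that rose and 30.0% that fell. The median log2 changes were -0.132 for PRC2, -0.402 for PRC1, -0.101 for the erasers and 0.044 for the partners, beside -0.049 for all genes tested. The falls were led by Epop, an elongin-binding partner of the Polycomb-like PRC2 form, whose median level went from 400.0 CPM on day 0 to 39.7 CPM on day 4 (log2 change -3.40 ± 0.19, adjusted p = 3.30e-11). Other large falls were of the canonical PRC1 gene Cbx8 (-2.56 ± 0.30, adjusted p = 6.51e-07), which encodes a reader of the H3 lysine 27 mark, and of Bmi1, a paralogue of Pcgf3 and Pcgf5 (-2.16 ± 0.20, adjusted p = 2.47e-08). Fbrsl1, of a non-canonical PRC1 form, fell by 1.22 on the log2 scale (SE 0.18). Ezhip, which encodes an inhibitor of EZH2 and is listed as AU022751, rose from a median of 1.41 to 6.26 CPM (2.06 ± 0.24, adjusted p = 5.53e-07). Smchd1, which acts in X inactivation, rose from 139.0 to 308 CPM (1.08 ± 0.13, adjusted p = 1.18e-06), and E2f6 and Phc2 of PRC1 rose by 0.89 ± 0.10 and 0.73 ± 0.19. From day 1 to day 4, 6 of the 47 rose and 23 fell in TXdXicB6 and 7 rose and 23 fell in TXdXicCast, beside 27.8% and 28.7% of all genes in TXdXicB6 and 30.4% and 28.8% in TXdXicCast, with medians of -0.275 and -0.246, beside 0.003 and 0.018 over all genes tested.

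The X-linked genes of the list did not share a direction. Besides Ezhip, which also lies on the X chromosome and rose, Rbbp7, a histone-binding subunit of PRC2, rose from 746 to 1223 CPM in TX1072 (0.72 ± 0.10, adjusted p = 9.43e-06), and Scml2, a partner of PRC1, rose from 5.26 to 14.9 CPM (1.53 ± 0.17, adjusted p = 4.51e-07). Bcorl1 fell by 0.61 on the log2 scale (SE 0.24, adjusted p = 0.0357), while Kdm6a, a demethylase that removes the PRC2 mark (0.11 ± 0.11, adjusted p = 0.414), and Bcor (-0.03 ± 0.17, adjusted p = 0.887) did not pass the test. Of 13 cell cycle genes, 1 rose, 9 fell and 3 did not pass from day 0 to day 4, with summed medians of 6773 CPM and 4858 CPM, and the part of the cell cycle in the falls of Ezh2 and Suz12 was not tested.

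**Figure D5:**
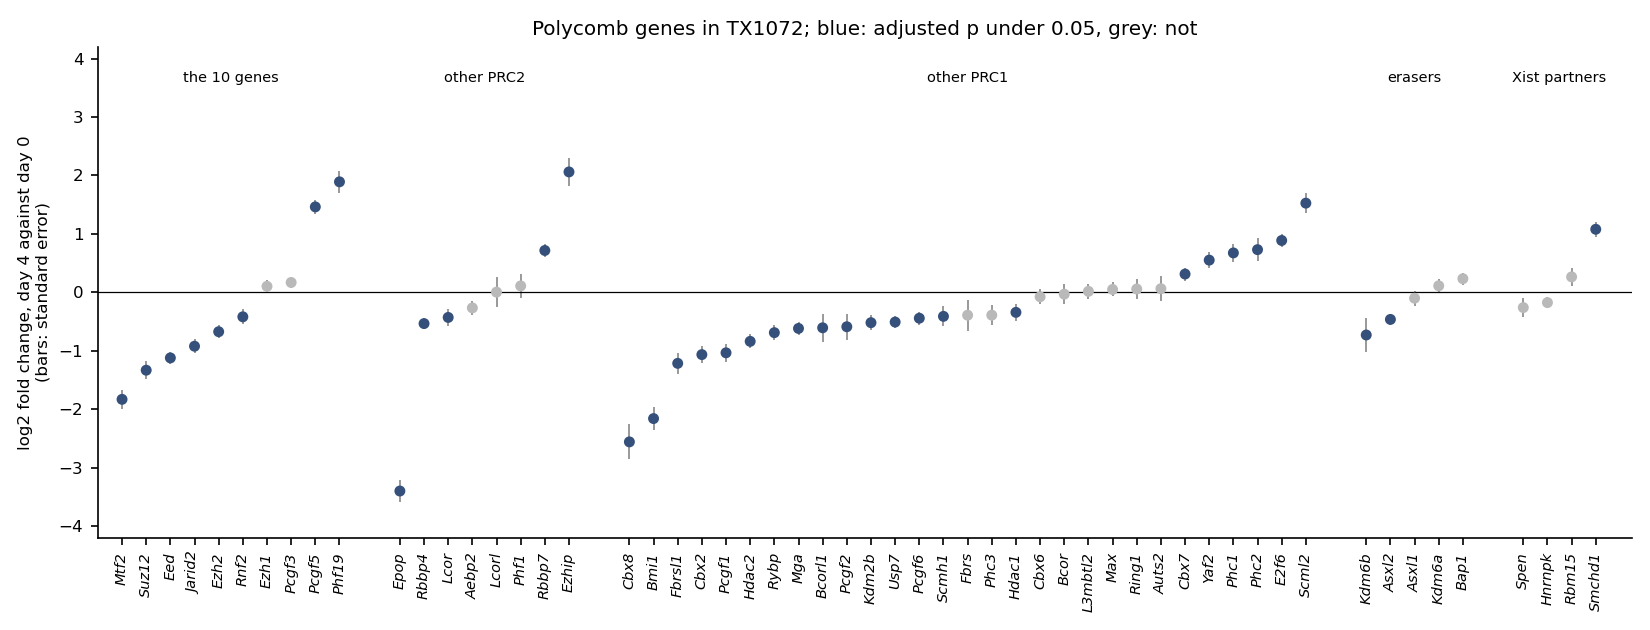
Log2 fold change from day 0 to day 4 in TX1072 (edgeR, bars are standard errors) of the 10 Polycomb complex genes and of other Polycomb genes, grouped by complex and ordered within each group. Blue points have an adjusted p under 0.05 and grey points do not, and Phf19 and Pcgf5 are the genes of the 10 that lie above 0 in blue.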

How the data were processed

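RNA was measured in bulk in 45 libraries, which are 3 replicates in each of 15 groups (3 lines, days 0 to 4), and in single TX1072 cells. The authors aligned reads with STAR (2.5.2b) to mm10 with B6 and Cast SNPs masked, and deposited raw counts per gene (featureCounts for bulk, distinct UMIs for single cells), in all and per allele. TX1072 libraries were made with a TruSeq and deletion-line libraries with a KAPA kit, so tests were made within each table. CPM (counts per 1000000) used autosomal totals with TMM factors.

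Comparisons used edgeR 4.0.16 (quasi-likelihood test, filterByExpr, two-sided, Benjamini-Hochberg threshold 0.05), fitted once over the 15 TX1072 libraries and once over the 30 of the deletion lines. Ratios used a pseudocount of 0.5 counts. The counting error of a level follows from totals of 16906263 to 57920260 counts per library, and the spread between replicates adds to it. On simulated counts for TX1072 from day 0 to day 4, 70.1% of 67 genes changed 2-fold and 27% of 63 changed 1.5-fold were recovered. There, 18070 of the 18265 genes were left unchanged, whereas 11287 of 18871 were called in the data. The Benjamini-Hochberg cut thus differs, and these shares do not give the recovery in the data. Alternatives were DESeq2 1.42.0, its size factors, TMM factors from all genes, no filter, a replicate block, each library left out, no TXdXicCast line, allele-assigned counts, and, for cells, all capture sites, thinning, cell means and spliced counts.

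The genes and lists were chosen with earlier results of these data known. Named besides the 10 genes were the 5 largest rises and falls of the other Polycomb list in TX1072 from day 0 to day 4 without overlap of replicates, its X-linked genes, and the 2 genes most correlated with each of the 10. Some genes that this rule names are not reported here. Each replicate was differentiated on another day per the study's reporting summary, which pairs samples by replicate number. Checked over all genes tested, deviations from group means correlated with a median r of 0.196 between libraries of the same number in TX1072 (-0.112 otherwise) and of 0.245 in the deletion lines (-0.155 otherwise). The main fits have no block. Single-cell counts per allele and unspliced counts were not used.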

Additional observations from a re-analysis of the deposited data

Results flagged for a closer look

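Scml2, an X-linked partner of PRC1, changed from day 1 to day 4 in opposite directions in the deletion lines. Its levels were between 13.0 and 14.8 CPM on day 1 and between 6.57 and 6.82 CPM on day 4 in TXdXicB6 (log2 change -1.09 ± 0.18), and between 7.65 and 8.71 CPM and between 10.8 and 20.9 CPM in TXdXicCast (0.82 ± 0.18). The difference in the change was 1.91 ± 0.26 (interaction term in edgeR, adjusted p = 0.000587). Each line is 1 clone, so clone and deletion cannot be told apart.

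Rnf2 was lower on day 4 than on day 0 in every library of TX1072, with a log2 ratio of mean levels of -0.419, and higher in every library of TXdXicCast, with 0.579. The difference between the lines was not tested, since their tables were normalized apart, and the day 0 RNA of TXdXicCast was degraded. From day 1 to day 4 the ratio was -0.351 in TXdXicCast.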

How the results depend on the processing

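Over 4762 values recomputed under an alternative, 4539 kept their direction and side of the threshold or stayed within the stated range. For TX1072 day 4 against day 3, the calls among the 10 genes were 6, and 3 without both libraries of highest mitochondrial share, and between 3 and 5 with 1 library left out (3 without day 3 replicate 2, day 3 replicate 3 or day 4 replicate 1). For TXdXicCast against TXdXicB6 at day 1, 78 genes were called, 198 without a filter and 147 with DESeq2, and between 22 (without day 1 replicate 3 of TXdXicCast) and 86 with 1 library left out, 5 of the 6 libraries lowering it by over 1.5 times, with calls among the 10 genes between 0 and 1. For TXdXicCast against TXdXicB6 at day 4, 1190 genes were called, 1798 with the replicate block, and between 332 (without day 4 replicate 3 of TXdXicCast) and 1296 with 1 library left out, with 654, 742 and 781 without day 4 replicates 1, 2 and 3 of TXdXicB6. For TXdXicCast against TXdXicB6 in the change from day 1 to day 4, 165 genes were called, 418 without a filter, 298 with the replicate block and 354 with DESeq2, and between 24 (without day 4 replicate 3 of TXdXicCast) and 229 with 1 library left out, while the calls among the 10 genes were 0, and 1 without a filter and 1 with the replicate block (Pcgf5). The cause was not tested. Besides the calls of Pcgf5 in this comparison and of Jarid2 against Mtf2 from day 0 to day 4 given above, the block moved the ratio of Pcgf3 to Pcgf5 past the threshold from day 0 to day 1 (0.161, adjusted p 0.0508 and 0.0349 with the block) and from day 1 to day 2 (0.162, 0.121 and 0.0366, exact permutation tests), and changed no other call of the 10 genes or of the ratios. For single cell levels, 3 of the 10 genes were higher at day 4 than at day 0, and 1 after thinning to 40000 UMIs, where Phf19 (-0.648) and Pcgf3 (-0.024) reversed.

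For the allelic share, the number of means between 40% and 60% was 120 with each replicate number left out, as with all libraries. Depth limits Phf19 at day 0 most, in bulk and in single cells.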

Other observations

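The courses of several of the 10 genes in TX1072 were most like those of genes with other roles. Over the 15 TX1072 libraries, which share 5 days and 3 replicate numbers, Pearson's r of log2 CPM was 0.984 between Suz12 and Chek1, a checkpoint kinase gene, and 0.924 over the 30 deletion-line libraries. Among the 2 genes most like Phf19 was Id2, an inhibitor of helix-loop-helix factors (r = 0.963, and 0.936 in the deletion lines). Among the 2 genes most like Jarid2 was Tex19.1 (0.970 and 0.936). Mtf2 was most like Zfp868 (0.975 and 0.852), Eed like Dpp4 (0.980 and 0.715), Pcgf5 like Ppp4r4 and Mef2a (0.980 and 0.979, and 0.916 and 0.894) and Ezh2 like Stk31 (0.964 and 0.912). Rnf2 was most like the X-linked gene Atrx in TX1072 (0.944) but not in the deletion lines (-0.142). The 30 deletion-line libraries include the degraded day 0 RNA of TXdXicCast, where mean Rnf2 was 62.2 CPM, against 118.4 CPM on day 1. The part of these libraries in the value for Rnf2 was not tested. The correlations describe shared time courses and were not tested.

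On chromosome 7, the 13 genes from Nars2 to Thap12, which lie 7.00 to 8.75 Mb after Eed, had B6 shares between 58.2% (Acer3) and 96.3% (Myo7a, whose share was 94.5% in TX1072) in TXdXicB6, and their levels were lower in TXdXicCast than in TXdXicB6 by -0.42 (Acer3) to -1.11 (Myo7a) on the log2 scale. Emsy, for example, had B6 shares of 51.4% in TX1072, 68.8% in TXdXicB6 and 53.1% in TXdXicCast.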
